A study of Sus scrofa with 12 samples.

Results

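Transcript levels of 5 transcription factor genes linked to bone formation, RUNX2, RUNX1, MSX1, DLX5 and TWIST1, were followed in pig (Sus scrofa) aortic valve interstitial cells that calcify in culture. The genes were chosen by symbol from a table of 22861 gene IDs, with every ID of a symbol kept. Rows were found for 4 of the 5 symbols, on 5 IDs, because RUNX2 has 2, and DLX5 was not analysed here. Valve interstitial cells are the mesenchymal cells that build and remodel the matrix of the leaflet. Their messenger RNA was sequenced in 12 libraries, as 3 biological replicates in each of 4 groups. All groups were cultures of the same labelled cell type, kept in DMEM on glass, which the labels give as the calcification stimulus. The groups were Stage 1 (day 5), Stage 2 (day 8), Stage 3 with KPT and Stage 3 with the solvent DMSO, both agents being added at Stage 3. There was no Stage 3 group without an agent. Comparisons of a Stage 3 group with Stage 1 or Stage 2 therefore mix stage with the added agent, which cannot be told apart. The day, dose and length of exposure of the Stage 3 cultures were not given in the sources used here, nor was a full name of KPT. The KPT code is known from a series of inhibitors of XPO1, the receptor that carries proteins out of the nucleus. Since no label says that the replicates came from separate animals, the p-values measure the spread between these cultures.

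RUNX2 is the transcription factor that commits mesenchymal cells to the osteoblast fate: it binds DNA through a Runt domain, together with its partner CBFB, and switches on genes of the bone matrix. RUNX1 carries the same type of Runt domain and is best known from blood formation, while MSX1 and DLX5 are homeobox factors of the developing skull and teeth, and TWIST1 is a basic helix-loop-helix factor that binds RUNX2 and holds it back. In calcific aortic valve disease, interstitial cells can take on traits of osteoblasts, and RUNX2 is the customary marker of that change.

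The first RUNX2 ID, ENSSSCG00000025551, has 5 exons of 5006 bases in all on the plus strand of chromosome 7, from 46279208 to 46417272, and received its symbol here through its Entrez number. The second, ENSSSCG00000001710, is a single exon of 438 bases on the minus strand of chromosome 7, from 46060321 to 46060758, which the gene table itself names RUNX2. RUNX1 is ENSSSCG00000012051, with 7 exons on the minus strand of chromosome 13 (208204968 to 208304419). MSX1 is ENSSSCG00000008727, with 2 exons on the minus strand of chromosome 8 (5246772 to 5250746). TWIST1 is ENSSSCG00000015370, with 3 exons that sum to 453 bases on the minus strand of chromosome 9 (97328124 to 97329026). All 5 IDs are annotated as protein coding, and their coordinates refer to a genome build not given in the sources used here.

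Levels are given as RPKM, reads scaled to exon length and library total. Library totals recovered from these values ranged from 13188023 to 24724019. All 5 member IDs reached 1 RPKM in all 12 libraries and so passed the expression filter, with 763 to 4563 reads for the 5-exon RUNX2 ID and 34 to 143 for the single-exon ID. All 10 of the listed valve interstitial markers, among them VIM, DCN and TBX20, were expressed. Of the 8 listed osteoblast markers, BGLAP and SPP1 passed the filter, IBSP was at 0 in every library and SP7 reached at most 0.233 RPKM. DMP1 and PHEX also stayed under the filter, and ALPL and COL1A1 had no row and could not be assessed. Leukocyte markers passed in 3 of 10 cases (CD14, CD68 and CD79A) with ITGAM at 0, and endothelial markers in 5 of the 9 with a row. CD79A had 222 to 293 RPKM, while PTPRC, also on the leukocyte list, reached at most 0.0184 RPKM. The source of the CD79A reads was not tested. In whole-culture RNA, fewer cells of a type and less RNA per cell cannot be told apart.

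RUNX2 fell at each step from Stage 1 through Stage 2 to Stage 3+DMSO. The step to Stage 3+DMSO joins stage and solvent. The 5-exon ID stood at 19.8, 20.6 and 21.0 RPKM in the Stage 1 libraries, at 14.4, 14.6 and 14.2 RPKM at Stage 2 and at 9.38, 7.57 and 9.70 RPKM at Stage 3+DMSO. No library of one stage overlapped with those of another. The share of all tested genes without such overlap is not reported here. Lack of overlap, here and below, therefore only describes the values. The log2 fold change, taken on log2(RPKM + 1), was -0.48 for Stage 2 against Stage 1 (SE 0.10, limma adjusted p = 0.00188) and -0.65 for Stage 3+DMSO against Stage 2 (SE 0.10, adjusted p = 1.95e-04). Across the whole course, Stage 3+DMSO lay below Stage 1 with a log2 fold change of -1.12 (adjusted p = 1.62e-06), and 1.60% of all tested genes fell further. The median gene did not share this course, with a log2 fold change of 0.15 for Stage 3+DMSO against Stage 2. After rescaling each library by its median ratio, which shifted that median by -0.16, RUNX2 changed by -0.80 in the same comparison.

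With KPT, the larger RUNX2 ID reached its highest level in the study. The 5-exon ID had 32.0, 30.3 and 36.9 RPKM in the Stage 3+KPT libraries, against 9.38, 7.57 and 9.70 RPKM in the Stage 3+DMSO libraries. Each KPT library thus held over 3 times the level of each DMSO library. The group means were 33.1 ± 3.40 RPKM with KPT and 8.88 ± 1.15 RPKM with DMSO (SD, n = 3 each), a ratio of 3.72, and the log2 fold change was 1.79 (SE 0.10, 95% interval 1.58 to 2.00, limma adjusted p = 7.30e-09). Of all tested genes, 1.76% rose by more. The KPT level also lay above that of the early stages, by 0.66 against Stage 1 (adjusted p = 5.19e-05) and by 1.14 against Stage 2 (adjusted p = 4.19e-07), both as log2 fold changes. For this ID as a whole, the order of the 4 groups was therefore Stage 3+KPT, Stage 1, Stage 2 and Stage 3+DMSO from high to low. Every pair of neighbours differed beyond its spread at this level. Taken exon by exon, the rise over Stage 1 passed the threshold in exon 5 alone (0.75, limma adjusted p = 0.00228). Exons 1 to 4 had log2 fold changes of 0.20 to 0.29 there. The summed RPKM of the 10 interstitial markers moved in the same comparison, being 16906 to 17459 in KPT libraries and 26649 to 29184 in DMSO libraries. The sum rests mostly on VIM, COL1A2 and COL3A1. POSTN (2677 to 3095 RPKM with KPT and 929 to 1187 RPKM with DMSO), DCN (439 to 512 and 337 to 385 RPKM) and LUM (461 to 527 and 348 to 440 RPKM) ran the other way, each without overlap. The endothelial sum was 33.6 to 40.2 RPKM with KPT and 68.3 to 85.9 RPKM with DMSO, and the sum of the chondrocyte markers was 64.3 to 68.6 RPKM with KPT and 47.1 to 58.9 RPKM with DMSO. Over the stages the chondrocyte sum was at most 16.6 RPKM at Stage 1, 29.2 to 30.6 RPKM at Stage 2 and 47.1 to 58.9 RPKM at Stage 3+DMSO. Of the 6 chondrocyte markers, only SOX9, ACAN and COMP passed the filter, and COL2A1 had no row. Which genes carry the chondrocyte and endothelial sums is not reported here. The part of the marker shifts in the RUNX2 differences was not tested.

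**Figure D1:**
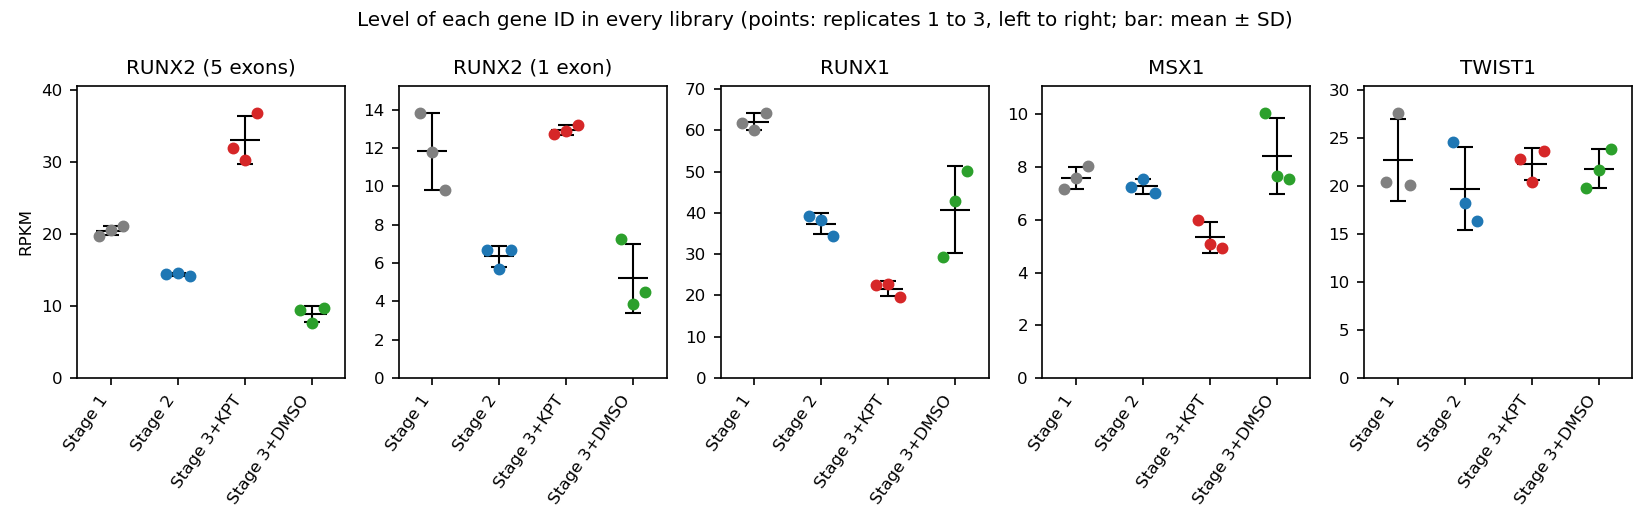
RPKM (vertical axes, each from 0) of the 5 member IDs in each library, by group; points are replicates and bars the mean ± SD of 3. The 5-exon RUNX2 ID steps down over the stages and stands highest with KPT (30.3 to 36.9 RPKM), RUNX1 and MSX1 are lowest with KPT, and the groups of TWIST1 overlap.

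The single-exon RUNX2 ID followed a similar course at a lower level. It had 13.8, 11.8 and 9.80 RPKM at Stage 1, 6.67, 5.71 and 6.68 RPKM at Stage 2 and 7.26, 3.86 and 4.47 RPKM at Stage 3+DMSO. All Stage 2 libraries lay below all Stage 1 libraries (log2 fold change -0.79, SE 0.17, limma adjusted p = 0.00304), whereas the DMSO libraries overlapped those of Stage 2 (-0.28, adjusted p = 0.204). Without replicate 1 of Stage 3+DMSO, which held the highest value of its group, the difference from Stage 2 was -0.51 (adjusted p = 0.00859). With KPT the ID had 12.7, 12.9 and 13.2 RPKM, against 7.26, 3.86 and 4.47 RPKM with DMSO, again without overlap (log2 fold change 1.21, SE 0.17, adjusted p = 6.02e-05). Its KPT level overlapped that of Stage 1 (0.13, 95% interval -0.24 to 0.51, adjusted p = 0.520), so those neighbours in the order were not separated.

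The 2 RUNX2 IDs lie apart on opposite strands, and the log2 ratio of the single-exon to the 5-exon ID compared them within each library. The ratio averaged -1.29 ± 0.12 in KPT libraries and -0.71 ± 0.33 in DMSO libraries (SD, n = 3 each). The difference of -0.58 gave an exact two-sided permutation p = 0.1, the smallest that 3 against 3 can give. Over the 6 pairs of groups this p ranged from 0.1 to 0.9. Counting both IDs as 1 feature left the RUNX2 change with KPT at 1.76 (limma adjusted p = 8.47e-09). Whether counting used strand was not given in the sources used here, so reads of the single-exon ID and of transcripts on the other strand cannot be told apart.

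All 5 exons of the larger RUNX2 ID rose with KPT. Exon 5, the last and by far the longest, makes up 87.2% of the exon length and had 31.2, 29.4 and 35.2 RPKM with KPT, against 8.47, 6.91 and 9.21 RPKM with DMSO. Exon 1 had 41.6, 39.9 and 47.2 RPKM with KPT, against 15.7, 12.5 and 12.7 RPKM with DMSO. In both exons every KPT library exceeded every DMSO library. The exon log2 fold changes for KPT against DMSO, from exon 1 to exon 5, were 1.59, 1.48, 1.67, 1.32 and 1.84 (limma adjusted p at most 8.71e-05).

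A change in the use of a RUNX2 exon relative to the gene's other exons passed the threshold for 0 of 5 exons in each of the 6 comparisons (limma diffSplice). The short exons held few reads, such as 36, 28 and 37 for exon 3 in the Stage 3+DMSO libraries, so changes may have been missed. Of 121506 exons tested, 0.413% were called for Stage 2 against Stage 1, 0.436% for Stage 3+DMSO against Stage 2, 0.424% for Stage 3+DMSO against Stage 1, 0.962% for Stage 3+KPT against Stage 3+DMSO, 0.886% for Stage 3+KPT against Stage 1 and 1.00% for Stage 3+KPT against Stage 2. The lowest unadjusted p among the RUNX2 exons was 0.0172, for exon 5 in Stage 3+KPT against Stage 1 (relative log2 change 0.50, adjusted p = 0.486). It was the only RUNX2 exon with an unadjusted p under 0.05 in any of these comparisons. In the same comparison exon 5 itself rose by 0.75 (adjusted p = 0.00228), and exons 1 to 4 had log2 fold changes of 0.20 to 0.29 that did not pass the threshold. The log2 ratio of last to first exon of RUNX2 was -0.41, -0.43 and -0.41 with KPT and -1.08, -0.85 and -0.80 at Stage 1. It was -1.18, -0.21 and -0.64 at Stage 2 and -0.82, -0.77 and -0.42 at Stage 3+DMSO, so the KPT libraries stood apart from those of Stage 1 and overlapped those of Stage 2 and Stage 3+DMSO. Its median over 12105 genes was 0.35, 0.31 and 0.38 with KPT and 0.29, 0.26 and 0.29 at Stage 1, so the typical gene moved in the same direction by less, and the part of this shift in the RUNX2 values was not tested.

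**Figure D2:**
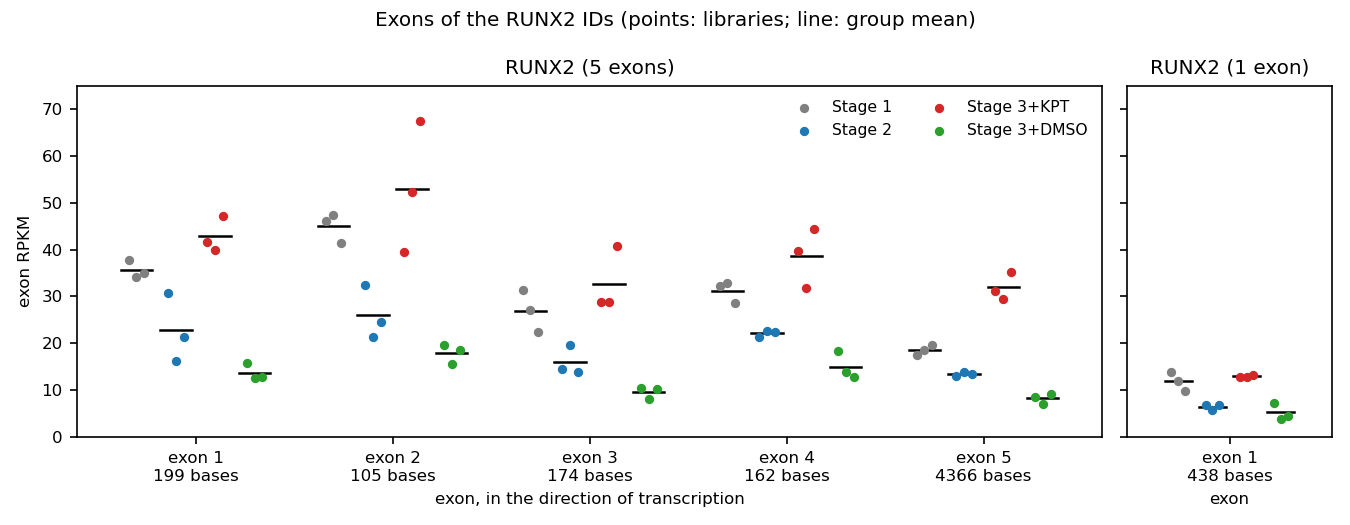
Exon RPKM (vertical axis) of the 5 exons of the larger RUNX2 ID (left) and of the single-exon ID (right) in each library; points are libraries and lines are group means. The Stage 3+KPT points lie above the Stage 3+DMSO points in every exon, from 29.4 to 35.2 against 6.91 to 9.21 RPKM in exon 5.

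RUNX1 was the most abundant member per length outside the KPT group, and it moved opposite to RUNX2 with KPT. It had 61.7, 60.2 and 64.3 RPKM at Stage 1, 39.3, 38.4 and 34.5 RPKM at Stage 2 and 29.4, 42.8 and 50.2 RPKM at Stage 3+DMSO. RUNX1 fell at Stage 2 without overlap with Stage 1 (log2 fold change -0.72, SE 0.15, limma adjusted p = 0.00199). Between Stage 3+DMSO and Stage 2 the libraries overlapped (log2 fold change 0.09, adjusted p = 0.643), with the 3 DMSO cultures on both sides of the Stage 2 values. That sign was not stable: it turned to -0.07 after median-ratio rescaling, and without replicate 1 of Stage 3+DMSO the value was 0.30 (adjusted p = 0.0205). Against Stage 1, RUNX1 was lower at Stage 3+DMSO, with a log2 fold change of -0.63 (adjusted p = 0.00367), or -0.41 without the same replicate.

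In the Stage 3+KPT libraries RUNX1 stood at 22.5, 22.8 and 19.5 RPKM, against 29.4, 42.8 and 50.2 RPKM in the Stage 3+DMSO libraries. The highest KPT library lay below the lowest DMSO library, and the log2 fold change was -0.86 (SE 0.15, limma adjusted p = 2.59e-04). RUNX1 with KPT was also lower than at Stage 1 (-1.48, adjusted p = 1.52e-06) and at Stage 2 (-0.76, adjusted p = 4.93e-04). From high to low the groups ran Stage 1, Stage 3+DMSO, Stage 2 and Stage 3+KPT, with the middle pair not separated. All 6 tested RUNX1 exons fell with KPT against DMSO, with log2 fold changes of -0.69 to -0.99. RUNX1 shares the exon lengths of 105 and 162 bases with RUNX2. Over these exons, of the same lengths in both genes, the log2 fold changes were -0.80 and -0.99 for RUNX1 and 1.48 and 1.32 for RUNX2.

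The opposite changes shifted the ratio of the 2 Runt factor transcripts. RUNX2 RPKM divided by RUNX1 RPKM was 1.42, 1.33 and 1.89 in the KPT libraries, against 0.320, 0.177 and 0.193 in the DMSO libraries. At Stage 1 the ratio was 0.320, 0.342 and 0.327, and at Stage 2 it was 0.367, 0.380 and 0.411. RUNX2 exceeded RUNX1 in 3 of 3 KPT libraries and in 0 of 3 libraries of each other group. Replicate 1 of Stage 3+DMSO, with the lowest RUNX1 value of its group, had a ratio equal to the lowest of Stage 1 to 3 digits, and the other DMSO replicates had lower ones. These ratios use whole IDs, whose annotated exons differ in length. On exons of equal length, RUNX2 did not exceed RUNX1 in every KPT library. For 105 bases, RUNX2 had 39.5, 52.4 and 67.4 RPKM with KPT, and RUNX1 had 51.7, 48.9 and 40.4 RPKM. For 162 bases, RUNX2 had 39.7, 31.7 and 44.4 RPKM with KPT, and RUNX1 had 26.5, 33.9 and 30.2 RPKM. CBFB, the partner that both factors bind, was not analysed here, and RUNX3, the third family member, stayed under the expression filter.

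**Figure D3:**
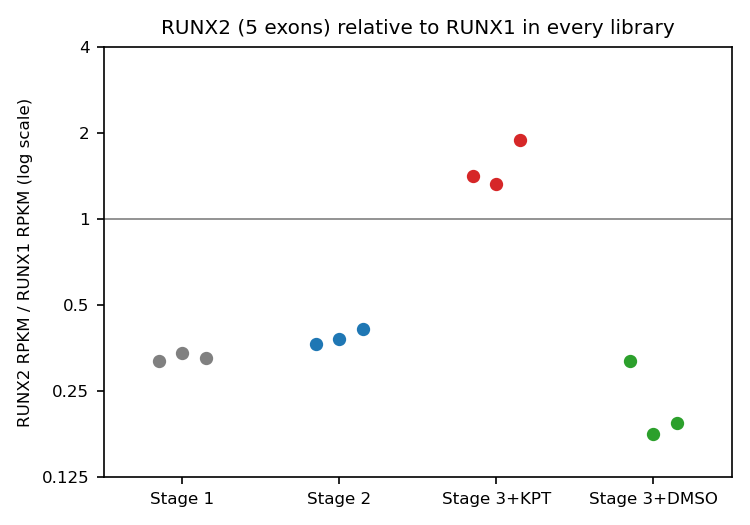
RUNX2 (5-exon ID) RPKM divided by RUNX1 RPKM in each library (vertical axis, log scale; points are libraries and the line marks equal levels). By RPKM of whole IDs, the 3 Stage 3+KPT libraries lie above 1, at 1.33 to 1.89, and the other 9 lie at or under 0.411.

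MSX1, a homeobox factor of craniofacial bone and tooth formation, changed with KPT and not measurably over the stages. It had 7.17, 7.57 and 8.03 RPKM at Stage 1, 7.26, 7.56 and 7.00 RPKM at Stage 2 and 10.1, 7.66 and 7.53 RPKM at Stage 3+DMSO. These 3 groups overlapped, and replicate 1 of Stage 3+DMSO was the highest library. The log2 fold changes were -0.05 for Stage 2 against Stage 1 (95% interval -0.30 to 0.20, limma adjusted p = 0.743) and 0.18 for Stage 3+DMSO against Stage 2 (-0.07 to 0.43, adjusted p = 0.234). With KPT, MSX1 had 6.01, 5.09 and 4.92 RPKM, against 10.1, 7.66 and 7.53 RPKM with DMSO. The KPT libraries lay below all other libraries. MSX1 fell by 0.56 on the log2 scale against DMSO (SE 0.12, adjusted p = 9.95e-04), by 0.44 against Stage 1 (adjusted p = 0.00452) and by 0.39 against Stage 2 (adjusted p = 0.00971). In the order of its levels, Stage 3+DMSO, Stage 1 and Stage 2 were not separated and Stage 3+KPT was the lowest.

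TWIST1, which restrains RUNX2 in skeletal precursors, differed between no pair of groups at the threshold. Its levels were 20.4, 27.7 and 20.1 RPKM at Stage 1, 24.6, 18.3 and 16.4 RPKM at Stage 2 and 19.8, 21.7 and 23.9 RPKM at Stage 3+DMSO. With KPT it had 22.9, 20.4 and 23.7 RPKM. Every group overlapped with every other. The log2 fold change for Stage 3+KPT against Stage 3+DMSO was 0.03, with a 95% interval of -0.29 to 0.35 (limma adjusted p = 0.866), which excludes a change as large as that of RUNX2, RUNX1 or MSX1 in the same comparison. For Stage 2 against Stage 1 it was -0.20 (-0.52 to 0.12, adjusted p = 0.310), and for Stage 3+KPT against Stage 2 it was 0.19 (-0.14 to 0.51, adjusted p = 0.286). Without replicate 1 of Stage 2, the last value was 0.35 (adjusted p = 0.0388). TWIST1 rested on 122 to 265 reads a library.

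**Figure D4:**
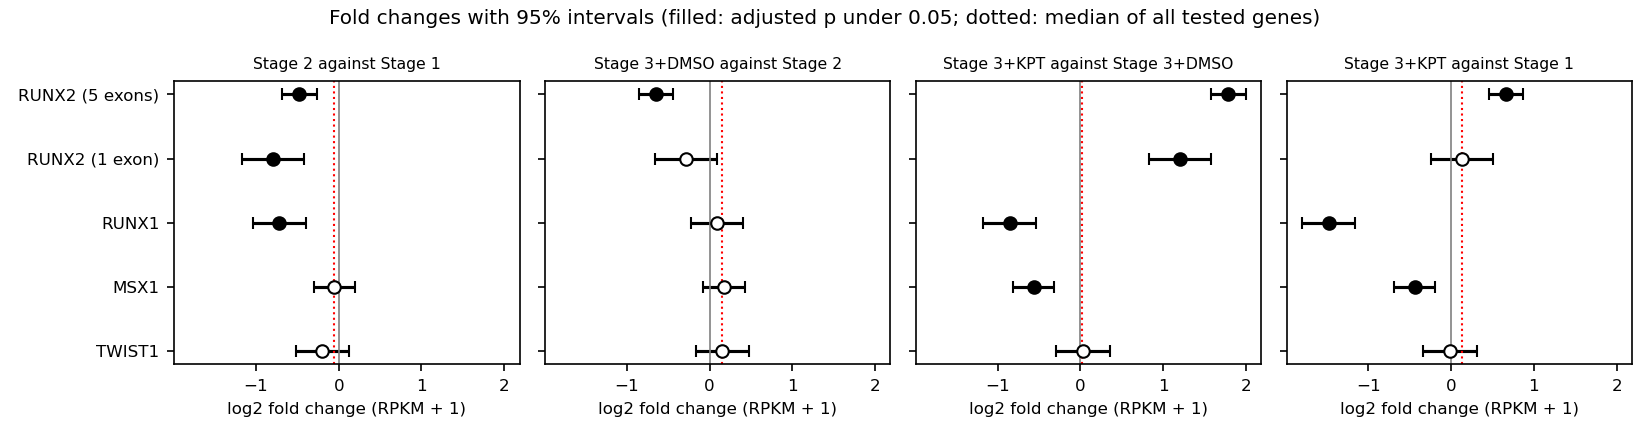
Log2 fold changes of the 5 member IDs in 4 comparisons (horizontal axes, log2(RPKM + 1) scale) with 95% intervals; filled points have an adjusted p under 0.05 and the dotted line is the median of all tested genes. With KPT against DMSO, both RUNX2 IDs lie to the right of 0 (1.79 and 1.21), RUNX1 and MSX1 to the left (-0.86 and -0.56) and TWIST1 at 0.03.

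Counts of called members have to be read against a background in which many genes changed. Of the 5 IDs, 3 were called for Stage 2 against Stage 1, all 3 of them lower, where 40.7% of the 13046 tested genes were called (16.3% higher and 24.4% lower). Of those background calls 40.1% were higher as deposited and 49.0% after median-ratio rescaling. For Stage 3+DMSO against Stage 2 it was 1 of 5, the larger RUNX2 ID, at a background of 44.1% (33.0% higher and 11.1% lower). The split of that background depends on scaling, since 74.9% of its calls were higher as deposited and 50.8% after median-ratio rescaling. For Stage 3+DMSO against Stage 1, 3 IDs were called, all 3 lower, at a background of 47.7% (30.5% higher and 17.3% lower). Of those background calls 63.8% were higher as deposited and 48.4% after rescaling. For Stage 3+KPT against Stage 3+DMSO, 4 of 5 IDs were called, 2 higher and 2 lower, at a background of 60.0% (30.5% higher and 29.5% lower). For Stage 3+KPT against Stage 1 it was 3 of 5, at a background of 66.8% (39.4% higher and 27.4% lower), of which 59.0% were higher as deposited and 49.9% after rescaling. For Stage 3+KPT against Stage 2 it was 4 of 5, at a background of 67.5% (42.5% higher and 24.9% lower), of which 63.1% were higher as deposited and 50.2% after rescaling. With 5 IDs these counts are near the background and are no result about the members as a group.

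Among proteins known to work with RUNX2, of which 11 of 13 listed were tested, 6 rose and 1 fell with KPT against DMSO. Over all tested genes 30.5% rose and 29.5% fell in this comparison, or 60.0% together, so the share of the list that was called (7 of 11) is near the background. The median log2 fold change of the list was 0.36, beside 0.02 for all tested genes. Without replicate 1 of Stage 3+DMSO the counts were 5 and 1 and the median 0.16. RB1, the retinoblastoma protein and a coactivator of RUNX2, rose to 30.0 ± 3.87 RPKM with KPT, against 8.62 ± 0.0616 RPKM with DMSO (log2 fold change 1.68, limma adjusted p = 1.07e-08). CEBPB, a leucine zipper factor, and YAP1, a Hippo pathway coactivator that binds RUNX2, rose by 1.27 and 1.11. WWTR1, the coactivator TAZ, was the member that fell (-1.03). At Stage 2 against Stage 1 the same list had 1 higher (WWTR1, 0.81) and 3 lower (CEBPB -0.94, ATF4 -0.60 and EP300 -0.39), and at Stage 3+DMSO against Stage 2 it had 3 higher, among them ATF4 (0.49) and WWTR1 (0.34), and 0 lower. After median-ratio rescaling, 1 rose and 1 fell in that last comparison, with the call of WWTR1 among those lost. The list's medians for these stage comparisons were -0.05 and 0.15, the same as for all tested genes to 2 decimals. In these stage comparisons the counts of this and the following lists stand beside background shares of 40.7% and 44.1% called.

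Proteins listed as holding RUNX2 back or marking it for breakdown moved both ways with KPT, 4 higher and 5 lower of 18 tested, beside a background of 60.0% called. Their median log2 fold change was -0.04, beside 0.02 for all tested genes. SNAI2, the repressor SLUG, had 2.95 ± 0.593 RPKM with KPT and 60.1 ± 22.4 RPKM with DMSO (log2 fold change -3.90, limma adjusted p = 3.74e-09). SNAI2 is counted in this list, but whether it holds RUNX2 back in these cells was not tested. HEY1, a Notch target, and the deacetylase HDAC6 fell by 0.69 and 0.68, while the corepressors TLE4 and TLE1 rose by 1.33 and 0.59. TWIST2, the close relative of TWIST1, rose to 13.5 ± 2.32 RPKM with KPT, against 6.52 ± 0.401 RPKM with DMSO (0.94, adjusted p = 1.43e-04), in the comparison in which TWIST1 had a log2 fold change of 0.03. At Stage 2 against Stage 1, when RUNX2 fell, 3 of the 18 rose (SNAI2 0.78, HES1 0.71 and ZNF521 0.57) and 5 fell, among them FHL2 (-0.92), an adaptor also known to aid RUNX2, the ubiquitin ligase SMURF1 (-0.74) and TWIST2 (-0.42, a call lost after rescaling). The median was -0.10, and after rescaling the counts were 5 higher and 4 lower. At Stage 3+DMSO against Stage 2, 4 rose, with SMURF1 at 0.60, TLE3 at 0.59 and HES1 at 0.58, and SNAI2 (-0.76) and HDAC7 (-0.66) fell, with a median of 0.10. After rescaling, 4 rose and 4 fell in that comparison, and the median turned to -0.056.

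Genes known as RUNX2 targets in bone cells moved both ways in the KPT cultures. Of 19 listed, 8 passed the filter, and for KPT against DMSO 2 rose and 4 fell, beside 30.5% and 29.5% of all tested genes. The median log2 fold change was -0.69, beside 0.02 for all tested genes. VEGFA, the angiogenic growth factor, rose to 419 ± 3.48 RPKM with KPT, against 140 ± 12.6 RPKM with DMSO (log2 fold change 1.58), and the receptor TGFBR1 rose by 0.40. TNFRSF11B (osteoprotegerin) fell by 1.95, the receptor FGFR2 by 1.25 and the matrix protein SPARC by 1.17. SPP1 (osteopontin) had 18.4 ± 0.695 RPKM with KPT and 25.5 ± 13.6 RPKM with DMSO (limma adjusted p = 0.487). Its DMSO libraries, from replicate 1 to 3, had 10.1, 30.5 and 35.8 RPKM, on both sides of the KPT libraries (18.3, 17.8 and 19.2 RPKM). Without replicate 1 of Stage 3+DMSO, 2 genes of the list rose and 5 fell with KPT, with a median of -0.92. BGLAP (osteocalcin) had 0.530 ± 0.440 RPKM with KPT and 0.869 ± 0.506 RPKM with DMSO (limma adjusted p = 0.440). At Stage 2 against Stage 1, SPARC (1.27), TNFRSF11B (0.73) and COL1A2 (0.45) rose and BGLAP (-1.16) and VEGFA (-0.88) fell. BGLAP lay near the filter of 1 RPKM, with 3.49, 1.27 and 1.82 RPKM at Stage 1 and 0.142, 0.214 and 0.844 RPKM at Stage 2. At Stage 3+DMSO against Stage 2, TGFBR1 rose (0.33, a call lost after rescaling) and VEGFA (-1.20), TNFRSF11B (-0.93) and FGFR2 (-0.38) fell. The medians of the list were -0.02 and -0.09 in these stage comparisons, beside -0.05 and 0.15 for all tested genes, and both signs turned after quantile normalization (0.052 and 0.10). Without replicate 1 of Stage 3+DMSO, 2 rose and 4 fell at Stage 3+DMSO against Stage 2, with a median of -0.15.

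Among the other bone-forming factors, a list that includes MSX1, 3 rose and 8 fell of 16 tested for KPT against DMSO, beside a background of 30.5% higher and 29.5% lower. Their median log2 fold change was -0.37, or -0.23 after quantile normalization, beside 0.02 for all tested genes. The Krüppel-like factor KLF4 (1.21) and the AP-1 factors JUNB (0.92) and FOSL2 (0.88) rose, and NFATC1 (-1.33) and the Wnt effectors TCF7 (-1.15) and LEF1 (-0.99) fell with MSX1. At Stage 2 against Stage 1, NFATC1 (0.37) and LEF1 (0.30) rose and ATF4 (-0.60), FOSL1 (-0.47) and GLI3 (-0.30, a call lost after rescaling) fell, with a list median of 0.06. After rescaling, 5 rose and 2 fell there, and without replicate 1 of Stage 3+DMSO, which shares in the estimate of the spread, the calls of LEF1 and GLI3 were lost. At Stage 3+DMSO against Stage 2, 5 rose, led by LEF1 (1.76), KLF4 (1.04) and ATF4 (0.49), and 4 fell, led by TCF7 (-0.88), KLF10 (-0.65) and FOSL2 (-0.53), with a list median of -0.03. After rescaling, 3 rose and 6 fell in that comparison. SP7 (osterix), which acts after RUNX2 in osteoblasts, stayed under the filter, and DLX3 did too.

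TWIST1 acts as a dimer with E proteins, for which ID proteins compete. Of 6 tested genes of this kind, 2 rose and 3 fell with KPT against DMSO, beside a background of 60.0% called. Their median log2 fold change was -0.32, beside 0.02 for all tested genes. ID2 rose to 352 ± 17.2 RPKM with KPT, against 85.0 ± 6.82 RPKM with DMSO (log2 fold change 2.04, limma adjusted p = 1.53e-10), and the E protein gene TCF4 rose by 0.27, a call lost after rescaling. ID4 (-1.23), ID1 (-0.47) and the dimer partner HAND2 (-0.40) fell. ID1 had risen at Stage 2 against Stage 1 (1.23) together with TCF4 (0.79), while ID2 fell (-0.22, a call lost after rescaling), and at Stage 3+DMSO against Stage 2, ID2 rose (0.38) and ID1 fell (-0.88).

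**Figure D5:**
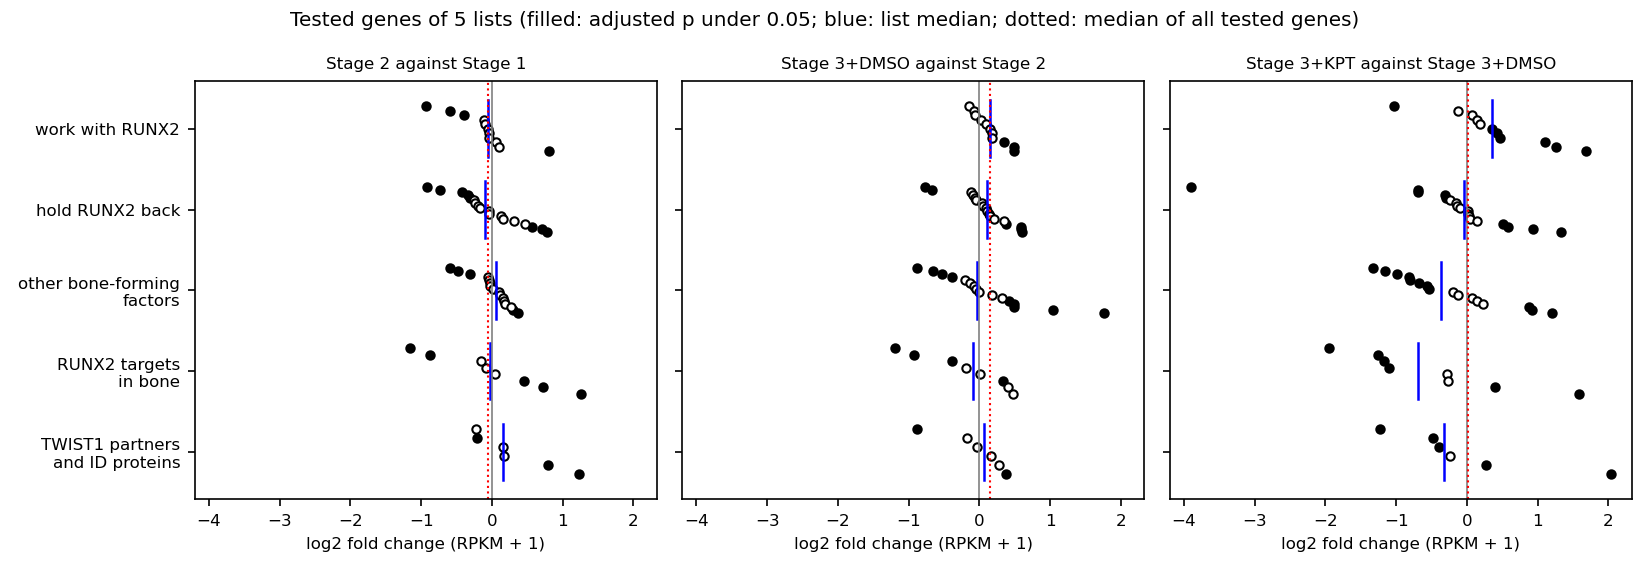
Log2 fold changes (horizontal axes, log2(RPKM + 1) scale) of the tested genes of 5 lists in 3 comparisons; filled points have an adjusted p under 0.05, blue bars are list medians and the dotted line is the median of all tested genes. With KPT against DMSO, the median of proteins that work with RUNX2 lies at 0.36 and that of RUNX2 targets at -0.69, and the point furthest left is SNAI2 at -3.90.

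The genes whose levels ran most nearly parallel to each member were taken by Pearson correlation of log2(RPKM + 1) over the 12 libraries, which share group means, so the values are descriptions. For the 5-exon RUNX2 ID these were the 2 IDs of the cytokine interleukin-6, IL6 and IL-6 (r = 0.98 each), and PRICKLE3 (0.98), and the lowest was RHCG (-0.99). Mean IL6 was 371 RPKM at Stage 3+KPT, against 22.4 RPKM at Stage 3+DMSO, and 130 and 52.9 RPKM at Stage 1 and Stage 2. These 2 IDs may share reads. FNBP4 (0.95), NPEPPS (0.94) and SNORD78 (0.94) ran closest to the single-exon ID, with TGFB1 at the other end (-0.98). RUNX1 was closest to RASAL2 and ADGRG2 (0.98 each) and ARHGEF10L (0.97) and furthest from HAPLN1 (-0.97). MSX1 was closest to MAP3K20 (0.99), ACVR1B (0.96) and DSTN (0.95) and furthest from PER1 (-0.97).

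TWIST1 reached at most r = 0.80 (SCAF1), followed by SNX30 (0.78) and ssc-mir-199a-2 (0.75), with IQCD lowest (-0.76). Counting genes with r of at least 0.9 gave 108 for the 5-exon RUNX2 ID, 28 for the single-exon ID, 234 for RUNX1, 55 for MSX1 and 0 for TWIST1. Among the members themselves, the 2 RUNX2 IDs had r = 0.89. The 5-exon RUNX2 ID had -0.42 with RUNX1 and -0.78 with MSX1, and the single-exon ID had -0.23 and -0.52 with the same genes. RUNX1 and MSX1 had 0.59, and TWIST1 lay between -0.15 and 0.19 with the others.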

How the data were processed

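Per the submitters' processing notes, reads were aligned with TopHat2 2.1.0. Counter, annotation release, build and strand setting were not given in the sources used here. Libraries were made with the TruSeq Stranded mRNA kit, per the labels' protocols. The authors deposited RPKM values for 22861 genes and 189618 exons, per the file headers. Multiplying RPKM by exon length and a whole-number library total gave whole reads for 100% of values (tolerance 0.001 of a read), which supplied the depths. Reads over genes summed to 1.751 to 1.813 times the library total, for a reason not given in the sources used here.

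Values were transformed to log2(RPKM + 1), with a pseudocount of 1, and tested with limma 3.58.1 (R 4.3.3). This scale understates changes of low genes. The 12 libraries were fitted together by group with an expression trend. Genes with at least 1 RPKM in at least 3 libraries were tested (13046 genes, 10779 with a symbol), with Benjamini-Hochberg adjustment over all of them in each of 6 comparisons and a threshold of 0.05. Exon use was tested with limma's diffSplice. The code was tested on simulated data. Intervals are at 95%, and values after ± are SDs over 3 libraries. Replicates of a group correlated at 0.985 to 0.994 across genes. Reads of near-identical copies may have been split between IDs.

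The members, gene lists and tests were chosen with earlier results of these data known. Named genes are all members, up to 3 called genes in each direction of each list in 3 comparisons, and the 3 genes of highest and the 1 of lowest correlation with each member. Some list genes that the rule names are not reported here. A symbol with several IDs is represented in lists by the most abundant. Some lists share genes, such as ATF4, and MSX1 and TWIST1 each sit in 1 list. Alternatives changed the pseudocount (0.1 or 0.5), the filter, the scaling, the trend, the groups fitted, the library weights, a replicate block, the library left out, and the tool (limma-voom on recovered reads). List counts after rescaling and without replicate 1 of Stage 3+DMSO were added after seeing the data.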

Additional observations from a re-analysis of the deposited data

How the results depend on the processing

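The larger RUNX2 ID kept its direction and side of the threshold in all 6 comparisons under each alternative run, with log2 fold changes of 1.69 to 1.90 for Stage 3+KPT against Stage 3+DMSO. The falls of RUNX1 and MSX1 with KPT also kept theirs, at -1.07 to -0.69 and -0.67 to -0.44. Of 696 recomputed member values, 674 kept direction and call.

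Calls were gained for 4 pairs of a member and a comparison. At Stage 3+DMSO against Stage 2, the single-exon RUNX2 ID was called under quantile normalization (-0.52) and with library quality weights (-0.34). Leaving out a library it ranged from -0.51 to -0.13, and was called only without replicate 1 of Stage 3+DMSO (-0.51). In that comparison 2 member IDs were called under the first and 2 under the second setting, and 1 to 3 leaving out a library. RUNX1 in that comparison ranged from -0.072 to 0.30 leaving out a library, and was called without the same replicate (0.30). With quality weights TWIST1 passed for Stage 2 against Stage 1 (-0.29) and for Stage 3+KPT against Stage 2 (0.28, leave-one-out 0.067 to 0.35).

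Signs turned where no call was made. Median-ratio rescaling gave -0.072 for RUNX1 and -0.0055 for TWIST1 at Stage 3+DMSO against Stage 2. Quantile normalization gave -0.052 for RUNX1, -0.047 for MSX1 and -0.035 for TWIST1 there, 0.050 for MSX1 at Stage 2 against Stage 1, and for TWIST1 -0.015 for KPT against DMSO and -0.050 for KPT against Stage 2. Leaving out a library, TWIST1 ranged from -0.12 to 0.10 for Stage 3+DMSO against Stage 1, from -0.032 to 0.10 for KPT against DMSO and from -0.091 to 0.13 for KPT against Stage 1. The ratio of the RUNX2 IDs for Stage 3+DMSO against Stage 1 was 0.05, -0.0084 with a pseudocount of 0.1, and -0.14 to 0.18 leaving out a library. The causes were not tested.

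No clear pairing by replicate number was seen. Deviations of same-numbered libraries from their group means had correlations of -0.131 to 0.0748 in 18 pairs, and 5 of 12 libraries correlated best with their own number. With 3 libraries a group, such values cannot show that pairing was absent. With a replicate block no member call changed, and 7725 genes were called for KPT against DMSO, against 7831 without it. Depth limits the single-exon ID most, at 34 to 143 reads a library.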

Other observations

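RUNX1T1, a corepressor gene known as the fusion partner of RUNX1 in leukaemia, was looked at after its values were seen and is on no list. It rose at Stage 3+DMSO, to 4.39 ± 0.584 RPKM, against 1.98 ± 0.457 RPKM at Stage 2 (SD, n = 3 each; log2 fold change 0.86, limma adjusted p = 5.31e-04), and it was lower with KPT, at 1.65 ± 0.355 RPKM (log2 fold change -1.03 against DMSO, adjusted p = 6.17e-05).

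The first annotated exon of RUNX1, of 81 bases, was read in Stage 1 libraries alone, with 1, 2 and 3 reads, and had 0 reads in the other 9 libraries. These counts lie at or under 3 reads, so no difference can be drawn from them.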
